A study of Mus musculus with 6 samples.

Results

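The expression of 10 genes that mark endothelial cells as a class was followed in 6 RNA-seq libraries of mouse blood endothelial cells (BECs) and lymphatic endothelial cells (LECs) with changed Dot1l. The members were taken as a list of gene symbols, Pecam1, Cdh5, Emcn, Plvap, Robo4, Ecscr, Egfl7, Clec14a, Cd93 and Esm1, and all 10 were found among the 24421 genes of the deposited count table. BECs from E15.5 embryo skin came from Tie2-Cre(−) embryos (Cont, labelled wild type) and Tie2-Cre(+) embryos (cKO, labelled Dot1l KO). Both genotypes carried 2 floxed Dot1l alleles, and RNA of several embryos was pooled into each library. Yolk sac BECs of the line CRL-2581 and embryonic dermal LECs (C57-6064L) were transduced with VP64-dCas9, a CRISPR activator without cutting activity, and guides against the promoter of Dot1l (OE-BECs, OE-LECs) or with empty lentivirus (Cont), and several flasks were joined in each library. Tie2-Cre is active in endothelium and in blood cells. The skin BECs were collected as the F4/80(−), CD45(−), Lyve1(−) fraction, and the study's drawing of the sort also names CD31, the product of Pecam1, as a selecting marker, so the presence of Pecam1 in the skin libraries is no finding.

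Endothelial cells line all vessels and hold to each other through junctions in which VE-cadherin and PECAM1 bind the same molecule on the neighbouring cell. Around these junctions sit surface proteins of the vessel wall, such as sialomucins, guidance receptors, lectin-like receptors and the proteins that build the diaphragms of caveolae and fenestrae. Genes of this kind are used to tell endothelium from other cells, whether blood or lymphatic, although several differ between vessel beds. Of the 10 members, Egfl7 and Esm1 encode secreted proteins, and the others encode proteins of the cell surface.

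There was 1 library for each condition. A difference between conditions therefore has no replicate check, and each ratio compares 2 libraries. The skin pair allows no test, and overexpression was tested only across both lines together. The libraries held 8863349 to 31032461 counted reads. Levels are given as CPM, the reads of a gene per 1000000 counted reads of the library, and intervals are 95% intervals of counting error alone. No molecular identifiers are described for these libraries, so PCR copies of 1 molecule may be counted as several reads. In bulk RNA, fewer endothelial cells and less RNA per endothelial cell cannot be told apart. Dot1l had 86 and 85.2 CPM in the skin pair (Cont, then labelled cKO), 112 in cultured Cont BECs and 302 in OE-BECs, and 95.3 in Cont LECs and 217 in OE-LECs. Whole-gene counts do not separate the floxed part, so they do not check the deletion, and the library is called the library labelled cKO. The study itself checked Dot1l by RT-qPCR, for the knockout (n = 1) and for the overexpression (n = 2), which these counts do not include. Prox1, which defines lymphatic endothelium, had 0 reads in all 4 cultured libraries, LECs included, and 147 and 79.7 CPM in skin Cont BECs and the library labelled cKO. Lyve1 reached 1998 and 1962 CPM in the LEC libraries, but also 604 and 1061 CPM in the BEC line. In the skin libraries labelled as BECs it had 1027 and 1801 CPM. The LEC libraries (Cont, then OE) had 0 and 0 reads of Pdpn and of Ccl21a, 1 and 1 of Reln, and 0 and 1 of Mmrn1. Flt4 had 107 and 130 CPM there. Skin Cont BECs had 294 CPM of Flt4, 835 of Mmrn1 and 465 of Reln. The name LEC therefore follows the sample titles, not these markers.

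Some sequences of the members are shown first, as a description. The results below come from read counts and do not use them. Clec14a had the lowest ratio of the members in every comparison, and Robo4 the highest in both overexpression comparisons. Their promoters (RefSeq, GRCm38, 250 bases before to 50 after the start site, in the direction of transcription) are printed below with motif letters in capitals. The letters searched, on either strand, were AGGAAG and the form CGGAAG for ETS factors, AGATAA for GATA factors and TATAAA for the TATA box. The Clec14a window lies at chr12:58269209-58269508 on the minus strand and the Robo4 window at chr9:37401722-37402021 on the plus strand.
Clec14a promoter: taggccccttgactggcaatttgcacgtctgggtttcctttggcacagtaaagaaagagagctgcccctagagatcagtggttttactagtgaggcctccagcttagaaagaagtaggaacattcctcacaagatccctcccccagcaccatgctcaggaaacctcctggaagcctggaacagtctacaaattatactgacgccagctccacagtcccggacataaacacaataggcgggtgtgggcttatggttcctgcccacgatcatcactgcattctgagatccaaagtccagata
Robo4 promoter: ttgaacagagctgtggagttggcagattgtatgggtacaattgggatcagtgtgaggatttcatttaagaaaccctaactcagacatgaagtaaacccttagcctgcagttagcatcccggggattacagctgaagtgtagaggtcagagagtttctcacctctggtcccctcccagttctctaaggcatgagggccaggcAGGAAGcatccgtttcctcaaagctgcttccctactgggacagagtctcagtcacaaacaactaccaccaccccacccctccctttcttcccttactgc

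The Robo4 window held 1 ETS match, 49 bases before the start site, and the Clec14a window held none of the 4 motifs, which says only that these letters are not in this window. Of 32851 promoter windows of the same length, 46.5% held either ETS form, 11.2% AGATAA and 13.6% TATAAA. A window was given for 5 of the 10 members. Emcn had 2 ETS matches in its window, Esm1 had 0, and the 3 windows of Egfl7 had 3, 2 and 0.

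Egfl7 is the host gene of miR-126, a microRNA of endothelial cells. Its hairpin (Mir126a) lies inside Egfl7 at chr2:26591357-26591429 of GRCm38 on the same strand. The mature sequence of the 3p arm is shown because the host and the hairpin could be counted apart, with the seed (bases 2 to 8) in capitals.
miR-126a-3p: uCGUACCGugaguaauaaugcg

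The levels of the members spanned a wide range, from Esm1, with at most 1 read in each cultured library, and Clec14a, with 16.6 CPM in OE-LECs, to Cdh5, with 3334 CPM in cultured Cont BECs. Together the members took 5415 CPM in skin Cont BECs, 7219 in cultured Cont BECs and 5744 in Cont LECs. Per kilobase of exon, Cdh5 was the highest member in every library, from 230.4 CPM per kb in the library labelled cKO to 793 in cultured Cont BECs. In skin Cont BECs it was followed by Cd93 (193 CPM per kb), Pecam1 (189) and Plvap (152), and in Cont LECs by Egfl7 (229), Pecam1 (191) and Emcn (145). The balance of the 10 genes therefore differed between the sources of the cells. Of the 50 pairs of libraries that were neighbours in the order of a member's CPM, 40 differed beyond counting error, 7 did not, and 3 pairs of Esm1 were at or under 3 reads in both libraries.

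**Figure D1:**
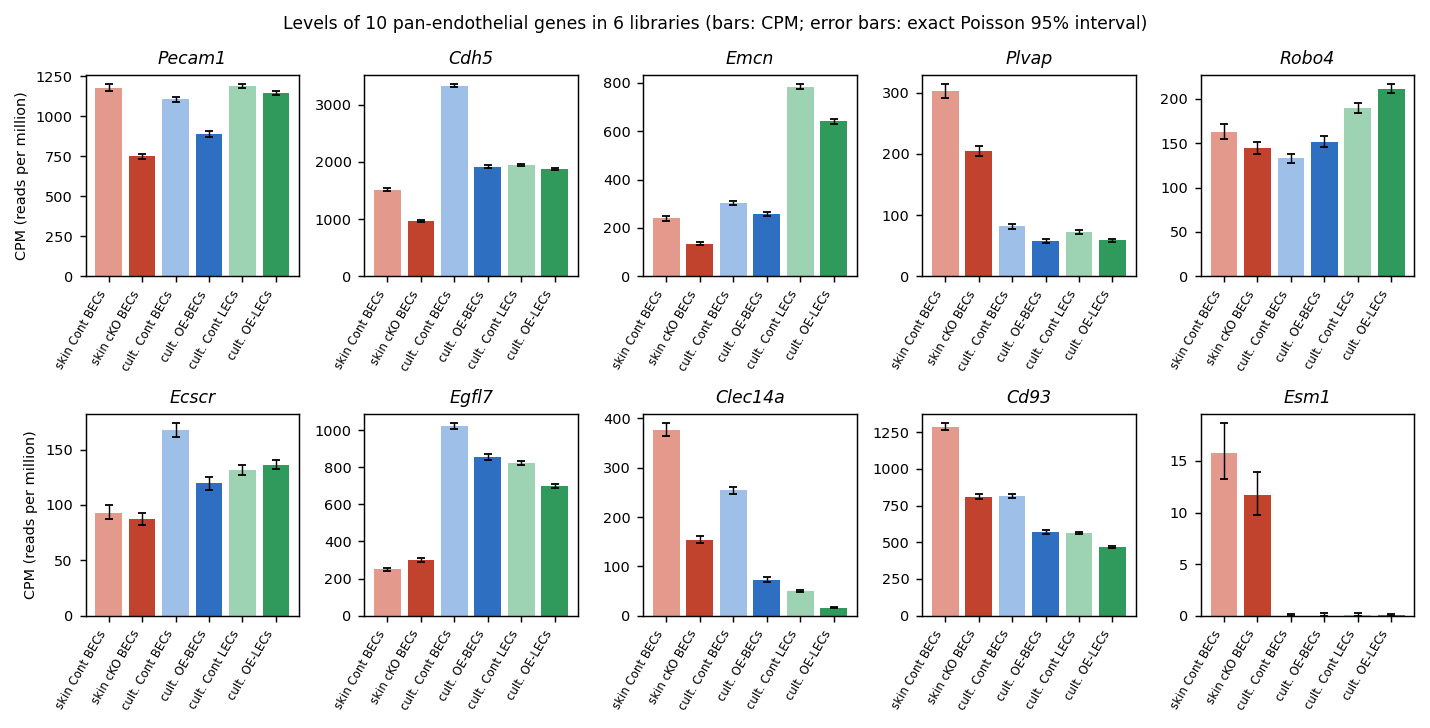
CPM of each of the 10 members (bars, linear axis from 0) in the 6 libraries, with exact Poisson 95% intervals. Clec14a was lower in each changed library than in its control (377 and 154, 254 and 72.9, 50.2 and 16.6 CPM), and Esm1 was seen in the skin libraries, with at most 1 read in each cultured library.

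Pecam1 and Cdh5 are the junction molecules of the list. Pecam1, an immunoglobulin-type adhesion receptor that platelets and leukocytes also carry, had 1178 and 750 CPM in skin Cont BECs and the library labelled cKO, 1107 and 889 in cultured Cont and OE-BECs, and 1187 and 1145 in Cont and OE-LECs. The 3 control libraries were thus close, and Cont LECs and skin Cont BECs did not differ beyond counting error. Cdh5, the gene of VE-cadherin, had 1511 and 968 CPM in the skin libraries, 3334 and 1916 in the BEC line and 1947 and 1882 in the LECs. It stood highest in cultured Cont BECs, 2.21-fold above skin Cont BECs and 1.71-fold above Cont LECs. The gene lies on chromosome 8 of mm10 from 104101625 to 104144511.

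Emcn and Plvap mark capillary and venous endothelium. Emcn, a sialomucin that keeps leukocytes from adhering, had 240 and 136 CPM in skin Cont BECs and the library labelled cKO, 304 and 257 in cultured Cont and OE-BECs, and 783 and 640.4 in Cont and OE-LECs. Its level in Cont LECs was 3.27-fold that in skin Cont BECs. Plvap, which forms the diaphragms of caveolae and fenestrae, went the other way, with 302 and 204 CPM in the skin libraries, 81.7 and 57.6 in the BEC line and 71.8 and 58.6 in the LECs. Both skin libraries were above all 4 cultured ones, and skin Cont BECs exceeded cultured Cont BECs 3.70-fold. Gtpbp3 overlaps Plvap on the other strand and had 668 to 1365 reads in the cultured libraries, against 803 to 1876 for Plvap.

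Robo4 and Ecscr are transmembrane proteins of endothelial migration. Robo4, an endothelial relative of the axon guidance receptors, had 163 and 144 CPM in skin Cont BECs and the library labelled cKO, 133 and 152 in cultured Cont and OE-BECs, and 190 and 211 in Cont and OE-LECs. Ecscr, a regulator of chemotaxis and cell survival, had 93.1 and 87.1 CPM in the skin libraries, 167 and 119 in the BEC line and 131 and 136 in the LECs. On this scale neither the 2 skin libraries nor the 2 LEC libraries differed in Ecscr beyond counting error.

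Egfl7 is a matrix protein laid down by endothelium. It had 249 and 298 CPM in skin Cont BECs and the library labelled cKO, 1021 and 854 in cultured Cont and OE-BECs, and 821 and 699.7 in Cont and OE-LECs, so all cultured libraries lay above both skin libraries. Cultured Cont BECs exceeded skin Cont BECs 4.10-fold. Agpat2 overlaps Egfl7 on the other strand and had 204 and 348 reads in the skin pair, 1445 and 1587 in the BEC line and 135 and 320 in the LECs. Because it is not settled whether strand was used in the counting, reads of both genes may be shared. The Mir126a hairpin did not keep step with its host gene. It had 21 and 27 reads in the skin libraries, 283 and 156 in the BEC line, but 27 and 9 in the LECs, where Egfl7 had 21437 and 21714 reads. Reads on the hairpin do not measure the mature microRNA. Mir126b, on the opposite strand, had 0 reads in all 6 libraries.

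Clec14a and Cd93 are C-type lectin-like receptors that share the matrix ligand MMRN2. Clec14a, on chromosome 12 of mm10 from 58264720 to 58269290, had 377 and 154 CPM in skin Cont BECs and the library labelled cKO, 254 and 72.9 in cultured Cont and OE-BECs, and 50.2 and 16.6 in Cont and OE-LECs. The spread is wide, and the level in skin Cont BECs was 7.51-fold that in Cont LECs. Cd93, also found on myeloid cells, had 1286 and 812 CPM in the skin libraries, 816 and 569.6 in the BEC line and 563 and 469 in the LECs. It had the same order of the 3 control libraries as Clec14a, over a range of 2.28-fold.

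Esm1 (endocan) is a secreted proteoglycan of endothelial tip cells. It had 140 and 130 reads in skin Cont BECs and the library labelled cKO (15.8 and 11.7 CPM), 0 and 0 in the BEC line, and 1 and 1 in the LECs. Skin Cont BECs were 93.1-fold above a floor of 3 reads in cultured Cont BECs, which had 0. The exact interval of this log2 ratio, from the reads themselves, had a lower end of 6.22 and no upper end. Against the 1 read of Cont LECs the log2 ratio was 8.69 (interval 6.19 to 14.0), which fixes no fold beyond its wide interval.

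Next, the library labelled cKO was compared with skin Cont BECs. For this and the other 2 comparisons, counts were scaled by the median of ratios of the pair, and a gene was called by the rule of the study's methods: the larger of the normalized counts had to reach 5 in the cKO comparison and 3 in the OE comparisons, and to exceed 3 times the smaller. As most members are far above such minimums, a ratio of at least 2 with at least 20 normalized counts was counted too. In the library labelled cKO, 9 of 10 members were lower and Egfl7 was higher, each beyond counting error at this scaling. The median log2 ratio of the 10 members was -0.66, against 0.01 for the 18784 genes with a read. None of the 10 passed the 3-fold rule, which 4.4% of all genes passed as higher and 2.05% as lower. By the 2-fold rule Clec14a was lower and no member was higher, against 3.25% and 6.67% of 13638 genes.

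Clec14a went from 3341 to 1712 reads, which is 2.54-fold lower in normalized counts (log2 ratio -1.34, interval -1.43 to -1.26). Only 1.63% of the genes with at least 20 normalized counts had a lower ratio. Pecam1 (10441 and 8317 reads), Cdh5 (13396 and 10734 reads) and Cd93 (11400 and 9001 reads) had log2 ratios of -0.71, -0.70 and -0.72, which lie within each other's intervals. Emcn was at -0.88 and Plvap at -0.62. Robo4 (-0.23), Ecscr (-0.15, interval -0.29 to -0.02) and Egfl7 (0.21, interval 0.13 to 0.28) stood apart from this group, and Esm1 with its few reads was at -0.48 (interval -0.84 to -0.13). The members thus did not move by 1 common factor in this pair of libraries.

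Genes of other cells also differed between the skin libraries. Of 12 macrophage markers, 11 were higher in the library labelled cKO and Cx3cr1 was lower (log2 ratio -0.89). The summed level of the 12 was 4057 CPM in Cont and 6335 CPM in cKO, with none at 0. Mrc1 alone made up 2538 and 3911 CPM of these sums. Adgre1, the gene of F4/80, had 194 and 308 CPM and Ptprc, the gene of CD45, 136 and 211 CPM, although both proteins were gated out. The summed level of the members went from 5415 to 3566 CPM, and that of 30 other pan-endothelial genes from 7404 to 4760 CPM. Of 7 lymphatic markers 4 were lower, Prox1 among them (log2 ratio -0.94), and 2 were higher, Lyve1 (0.75) and Pdpn (1.07), while Ccl21a had 0 reads in both. The part of these cell types in the values of the members was not tested.

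**Figure D2:**
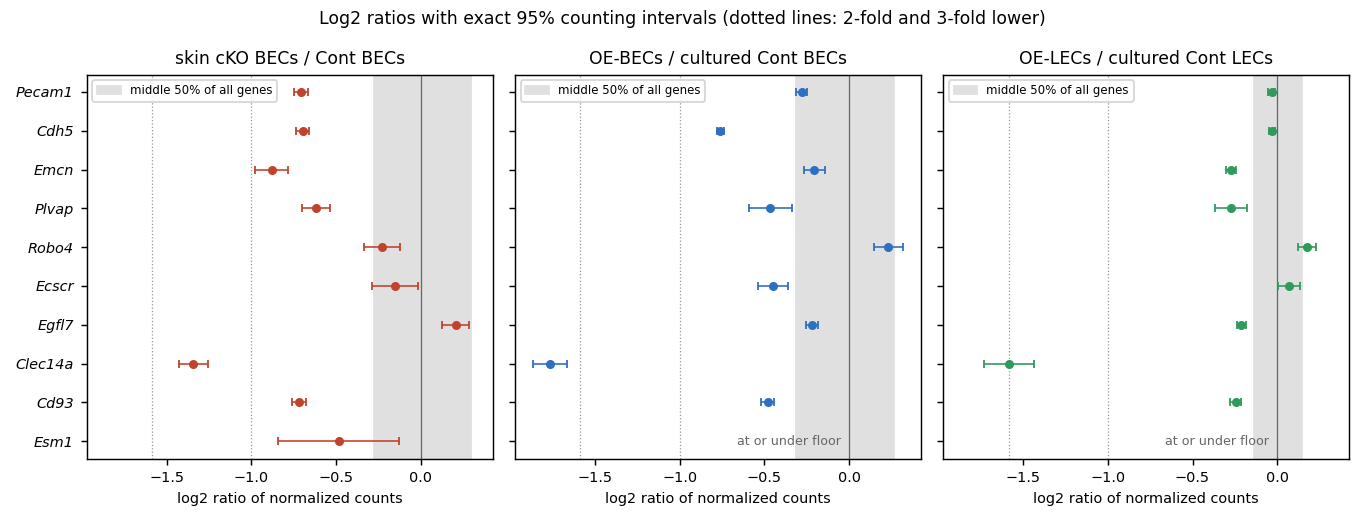
Log2 ratio of normalized counts of each member (points) with exact 95% counting intervals in the 3 comparisons, with the middle 50% of all genes of at least 20 normalized counts shaded. Clec14a lies at -1.34, -1.76 and -1.58, below every other member in each panel.

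In OE-BECs, 8 of the 9 members with more than 3 reads were lower than in cultured Cont BECs, and Robo4 was higher, each beyond counting error. The median log2 ratio was -0.45, against 0.02 for all 16820 genes with a read. Clec14a was the 1 member past the 3-fold rule, as lower, which 4.63% of all genes passed as lower and 7.05% as higher. It was also the 1 member lower by the 2-fold rule, which 5.59% of 11974 genes passed as lower and 4.33% as higher. Its reads went from 4499 to 1016, 3.40-fold lower in normalized counts (log2 ratio -1.76, interval -1.86 to -1.67), with 1.68% of genes below it.

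Cdh5 was next, from 58965 to 26691 reads, 1.69-fold lower (log2 ratio -0.76, interval -0.78 to -0.74). Cd93 (-0.48), Plvap (-0.46) and Ecscr (-0.45) had similar log2 ratios. Pecam1 (-0.28), Egfl7 (-0.22) and Emcn (-0.20) were nearer to 0, and all 3 lay in the middle 50% of genes. Robo4 had 2349 and 2115 reads, a normalized count 1.17-fold above the control, with a log2 ratio of 0.23 (interval 0.15 to 0.32). The Mir126a hairpin had a log2 ratio of -0.48 (interval -0.77 to -0.19), a range that includes the ratio of Egfl7. The 12 macrophage markers summed to 65.1 CPM in cultured Cont BECs and 35 CPM in OE-BECs, of which Cd68 made up 61.8 and 32.2 CPM, and 5 of them (Adgre1, Ptprc and the 3 C1q genes) had 0 reads in both.

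In OE-LECs, of 9 members with more than 3 reads, 7 were lower and 2, Robo4 and Ecscr, were higher than in Cont LECs. The median log2 ratio over the 10 members with a read was -0.16, against 0.01 for 16160 genes, and was -0.21 without Esm1, which had 1 read in either library. None passed the 3-fold rule (1.79% of all genes lower, 2.38% higher), and Clec14a was lower by the 2-fold rule (1.56% of 11858 genes lower, 2.26% higher). Clec14a had 1311 and 514 reads, 2.99-fold lower (log2 ratio -1.58, interval -1.73 to -1.43), just short of the 3-fold rule. Only 0.405% of genes had a lower ratio. With each of the 4 other scalings tried, Clec14a passed the 3-fold rule in this pair.

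The remaining members stayed within a narrow range in the LECs. Emcn and Plvap had log2 ratios of -0.27 each, Cd93 -0.25 and Egfl7 -0.21. Pecam1 (31002 and 35537 reads) and Cdh5 (50837 and 58415 reads) were both at -0.03, so the junction pair was nearly level between these 2 libraries. Robo4 was again higher (log2 ratio 0.17, interval 0.12 to 0.23). Ecscr was at 0.07 (interval 0.00 to 0.14), which is not beyond counting error when the libraries are scaled by their totals. The Mir126a hairpin was 3.52-fold lower, on 27 and 9 reads (log2 ratio interval -3.09 to -0.68).

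**Figure D3:**
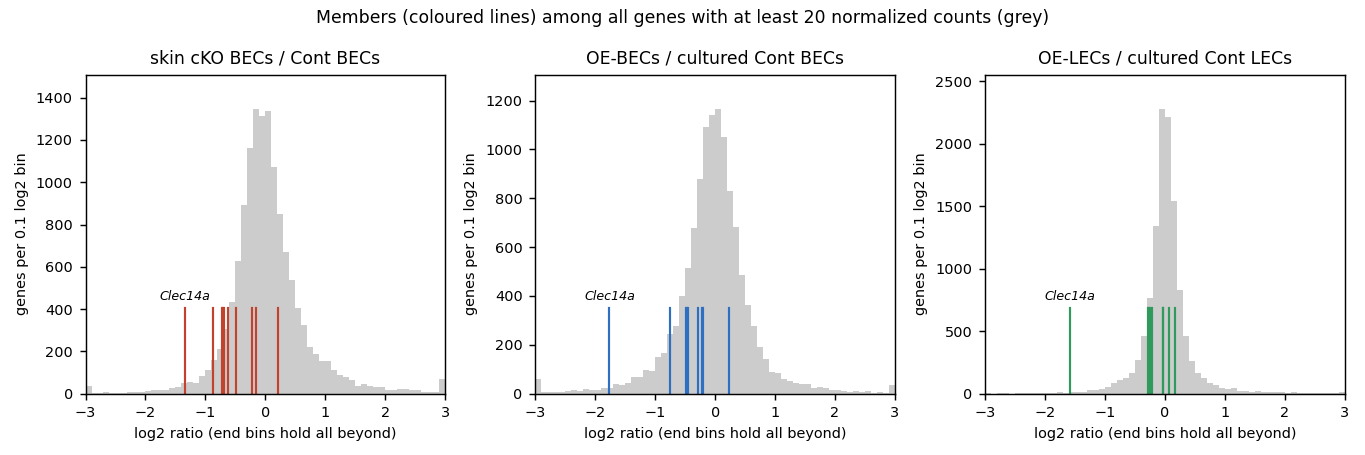
Number of genes per bin of 0.1 log2 ratio for all genes with at least 20 normalized counts (grey), with the members as coloured lines, in each of the 3 comparisons. Clec14a lies in the lower tail in each panel, with 1.63%, 1.68% and 0.405% of genes below it, while Cdh5, the next lowest in OE-BECs, has 8.76% below it.

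The same contrast in both lines was set side by side for 9 members. At the median of ratios scaling of each pair, the log2 ratio was higher in the LECs than in the BEC line beyond counting error for 6 members, lower for 1 (Emcn), and not different beyond counting error for Robo4 and Egfl7. The difference was widest for Cdh5, at 0.73 (interval 0.70 to 0.76), followed by Ecscr at 0.52 (0.41 to 0.63). For Clec14a it was 0.18 (0.01 to 0.36), and for Egfl7 0.01 (-0.04 to 0.05). The small differences depend on scaling. With totals that leave out Rn45s, 4 members (Pecam1, Cdh5, Ecscr and Cd93) were higher in the LECs and 3 (Emcn, Robo4 and Egfl7) lower, and with total counts or TMM factors none was lower. Pecam1, Cdh5, Ecscr and Cd93 were higher in the LECs under each of the 4 other scalings. With 1 library for each condition, a difference between the lines was not tested against the spread between cultures.

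Overexpression was also tested across both lines, with the line as a block, in an additive edgeR quasi-likelihood model of the 4 cultured libraries. This test was added after the values had been seen and has 1 residual degree of freedom. It takes as spread the difference of response between a BEC and a LEC culture, not that between replicate cultures. The spread of each gene is moderated with that of all genes tested, so its p does not rest on the gene's own difference alone. Clec14a was lower with overexpression at an estimated log2 ratio of -1.68 (edgeR adjusted p = 0.000304), in 2 of 2 lines. It was the 1 of 9 members tested that passed an adjusted p of 0.05, which 1.15% of 14184 genes passed as lower and 0.606% as higher. Cd93 (log2 ratio -0.36, edgeR adjusted p = 0.372) and Plvap (-0.37, edgeR adjusted p = 0.385) did not pass. Cdh5, which differed between the lines, had an estimate of -0.40 (edgeR adjusted p = 0.487).

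Ratios of a member to Cdh5 in the same library do not depend on scaling. In skin, Clec14a reads were 24.9% of Cdh5 reads for Cont and 15.9% for cKO. The share went from 7.63% to 3.81% in the BEC line and from 2.58% to 0.88% in the LECs with overexpression. The log2 changes were -0.64 (interval -0.74 to -0.55), -1.00 (-1.10 to -0.90) and -1.55 (-1.70 to -1.40), so Clec14a was lower relative to Cdh5 in each pair. Robo4 and Ecscr were higher relative to Cdh5 in all 3 pairs, by 0.47, 0.99 and 0.20 for Robo4 and by 0.55, 0.31 and 0.10 for Ecscr. In the BEC line Cdh5 had the lowest ratio after Clec14a, so by that order every other member with more than 3 reads was higher relative to it. Relative to Pecam1, Robo4 was higher in all 3 pairs (0.48, 0.51 and 0.21). Ecscr was higher relative to Pecam1 in skin (0.55) and the LECs (0.10), but lower in the BEC line (-0.17, interval -0.26 to -0.08). Pecam1 kept pace with Cdh5 in skin (-0.01, interval -0.06 to 0.05) and in the LECs (-0.00, interval -0.03 to 0.02), but was higher relative to it by 0.48 in the BEC line. For Egfl7 the change relative to Cdh5 was 0.90 in the skin pair, 0.54 in the BEC line and -0.18 in the LECs.

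**Figure D4:**
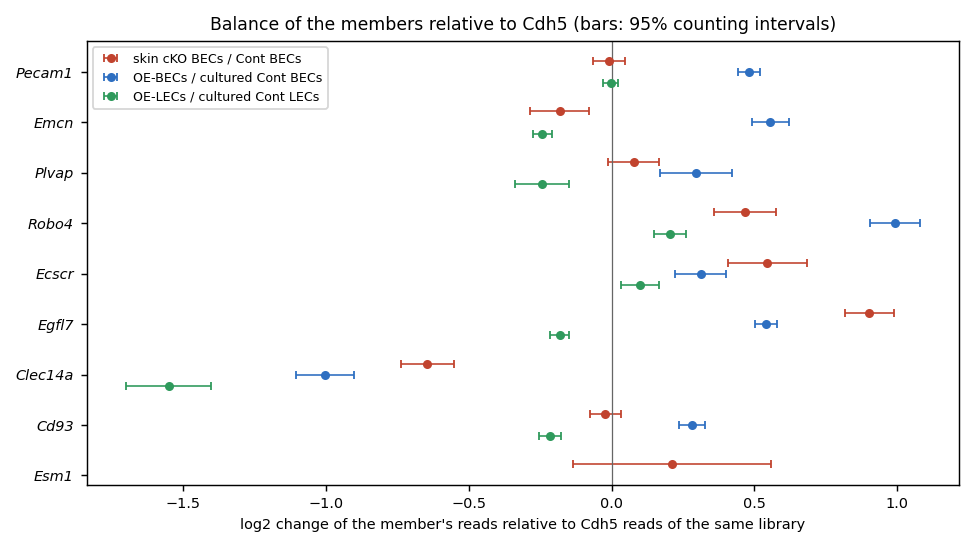
Log2 change of each member's reads relative to the Cdh5 reads of the same library, with 95% counting intervals, in the 3 comparisons. Clec14a is left of 0 in all 3 (-0.64, -1.00 and -1.55), and Robo4 and Ecscr are right of 0 in all 3. In the BEC line every point but that of Clec14a is right of 0, because Cdh5 had the next lowest ratio there.

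Genes that act with the members were followed as well. Mmrn2, the shared ligand of CLEC14A and CD93, had 1782 and 1448 reads in the skin pair, 472 and 105 in the BEC line (3.45-fold lower, past the 3-fold rule) and 69 and 80 in the LECs. Igfbp7, another ligand of CD93, was 2.11-fold lower in the skin pair (4295 and 2647 reads) and 5.51-fold lower in OE-BECs (266 and 37 reads), and had 132 and 115 reads in the LECs. Unc5b, the partner of Robo4, had log2 ratios of -0.15, -0.82 and 0.59 in the skin, BEC line and LEC pairs. Slit2 had 187 and 368, 52 and 50, and 136 and 260 reads in the same pairs. Kdr, the VEGF receptor, had 15527 and 10102 reads in skin, 12755 and 7936 in the BEC line and 12180 and 15953 in the LECs. Among the ligands and partners with more than 3 reads (17, 15 and 15 of 18 genes), the median log2 ratio was -0.39 in skin, 0.02 in the BEC line and 0.09 in the LECs. By the 2-fold rule 2 genes were lower and 0 higher in skin, 2 lower and 1 higher (Cav1) in OE-BECs, and 1 lower (Mir126a) and 0 higher in OE-LECs. The shares of all genes lower and higher by this rule were 3.25% and 6.67% in skin, 5.59% and 4.33% in the BEC line, and 1.56% and 2.26% in the LECs.

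The adherens junction partners of Cdh5 were counted by the same rules. Of 12 such genes, which include the catenins that tie VE-cadherin to actin, 0 passed the 2-fold rule in the skin and LEC pairs. Of all genes, 3.25% were lower and 6.67% higher by it in skin, and 1.56% and 2.26% in the LECs. In OE-BECs 4 of the 12 were lower by it and 0 higher, where 5.59% of all genes were lower and 4.33% higher. Ctnnb1 (beta-catenin) was among the 4, with 29784 and 9327 reads, 2.45-fold lower (log2 ratio -1.29), and so was Ptprb, the phosphatase that acts on VE-cadherin (log2 ratio -1.22). Cdh2 (N-cadherin) was at 0.15, 0.80 and 0.68 in the skin, BEC line and LEC pairs. The list's median log2 ratios were -0.32, -0.26 and 0.02.

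Among 30 other pan-endothelial surface and junction genes, 28 were lower in the library labelled cKO, 25 in OE-BECs and 20 in OE-LECs, with median log2 ratios of -0.65, -0.64 and -0.19. The 3-fold rule was passed as lower by 2, 9 and 4 of them, against 2.05%, 4.63% and 1.79% of all genes. As higher it was passed by 0 in each pair, against 4.4%, 7.05% and 2.38%. By the 2-fold rule 4, 13 and 7 were lower, against 3.25%, 5.59% and 1.56%, and 0, 2 and 0 higher, against 6.67%, 4.33% and 2.26%. Sele and Selp, the endothelial selectins, were the 2 past the 3-fold rule in skin (163 to 20 and 130 to 44 reads). Sele was higher in the other pairs, 2.53-fold in OE-BECs (past the 2-fold rule) and 1.86-fold in OE-LECs. Procr, the protein C receptor, was higher in OE-BECs (3510 and 5396 reads), just past the 2-fold rule, and Podxl, a sialomucin, 1.64-fold higher in OE-LECs. In OE-BECs Jam2, a junctional adhesion molecule, fell from 19513 to 1698 reads (8.81-fold) and Tspan18 from 1831 to 264 reads (5.32-fold). Cldn5, the endothelial claudin, fell 3.31-fold in OE-BECs and 2.60-fold in OE-LECs (lower by the 2-fold rule), and had a log2 ratio of -0.32 in skin. In OE-LECs Gpihbp1, which anchors lipoprotein lipase in capillaries, fell 5.58-fold and Gpr182 3.95-fold. Both also passed the 3-fold rule as lower in OE-BECs (4.42-fold and 5.45-fold). Tspan18 was just past this rule in OE-LECs too (1171 and 458 reads), and Jam2 fell 2.42-fold there. In skin Jam2 was 2.61-fold lower, and the log2 ratios of Tspan18, Gpihbp1 and Gpr182 were -0.95, 0.05 and -0.15.

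Of 19 endothelial transcription factors with more than 3 reads, 17 were lower in the library labelled cKO, 17 in OE-BECs and 13 in OE-LECs. The list's median log2 ratios were -0.54, -0.34 and -0.18. The 3-fold rule was passed as lower by 0, 2 and 1 of them, against 2.05%, 4.63% and 1.79% of all genes. By the 2-fold rule 4, 3 and 1 were lower, against 3.25%, 5.59% and 1.56%. None was higher by the 2-fold rule, against 6.67%, 4.33% and 2.26%. Sox18 was lower by the 3-fold rule in OE-BECs (1436 and 247 reads) and OE-LECs (1281 and 477 reads), and Lmo2 in OE-BECs (1506 and 371 reads). Klf4 was 2.10-fold lower in the library labelled cKO, and had a log2 ratio of 0.67 in OE-LECs.

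**Figure D5:**
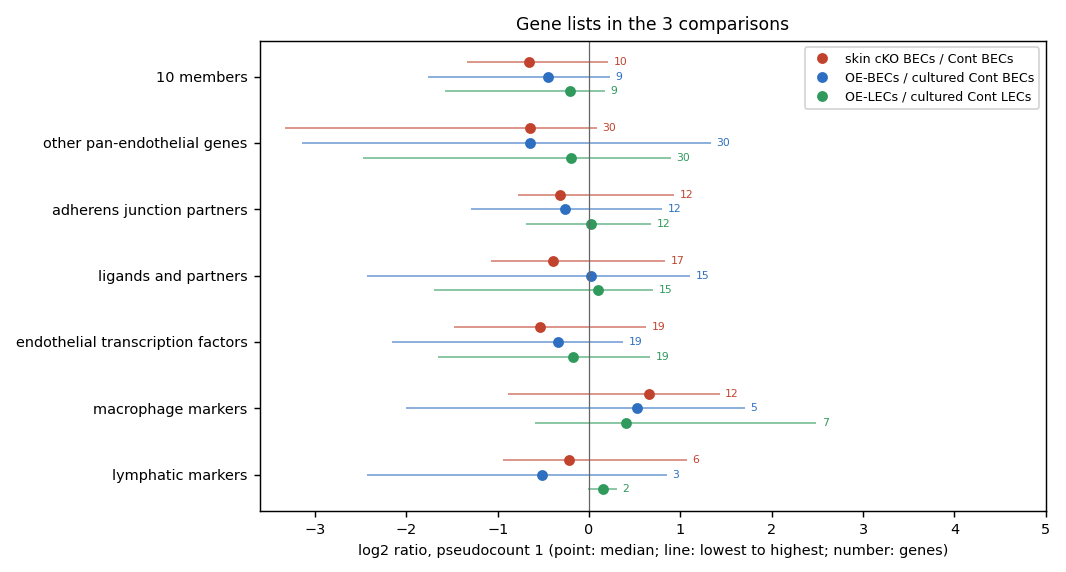
Median (points) and lowest to highest log2 ratio (lines, pseudocount of 1) of the members, 4 related gene lists and 2 marker lists in the 3 comparisons, with the number of genes that had more than 3 reads. The medians of the members lie at -0.66, -0.45 and -0.21 in the skin, BEC line and LEC pairs, and the macrophage markers at 0.65 in skin.

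Finally, the genes whose CPM followed the mean pattern of the members most closely over the 6 libraries were listed among 9698 other genes with a mean of at least 10 CPM. This pattern averages log2(CPM + 1) less each member's own mean, and it joins members that ran opposite. In skin Cont BECs Esm1 (2.76), Clec14a (1.92), Plvap (1.53), Cd93 (0.86) and Pecam1 (0.20) were above their own mean. Egfl7 (-1.21), Emcn (-0.46), Ecscr (-0.36), Cdh5 (-0.25) and Robo4 (-0.01) were below it. A gene close to the pattern thus need not follow each member. Ets2, a factor of the ETS family, had the highest Pearson r (0.986 on log2(CPM + 1)), with 417 and 279 CPM in skin Cont BECs and the library labelled cKO, 305 and 205 in cultured Cont and OE-BECs, and 278 and 201 in Cont and OE-LECs. Xpr1, Hipk3, Hsf2, Csad, Arhgap17, Btg2, Grb10 and Stx6 were among the next, with r from 0.943 to 0.979. The closest to Cdh5 were Pcdh1 (0.993) and Adcy4 (0.988), and the closest to Pecam1 were Klhl2 (0.986), Chst7 (0.971) and Pi4kb (0.97). These are 6 libraries from 3 sources of cells, so each r is a description.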

How the data were processed

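RNA-seq of 6 libraries, 1 per condition, was analysed. Per the study's methods, ScriptSeq v2 libraries were trimmed with skewer, aligned to mm10 with STAR and counted per gene with VERSE. The authors deposited these raw counts for 24421 gene symbols, and the meaning of the strand setting of the counting is not given in the sources used here. Groups follow the sample titles. The members and lists were chosen with earlier results of these data known. All samples and columns of the table were used, and 8863349 to 31032461 reads per library set the counting precision.

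Counts were scaled with the median of ratios of DESeq2 1.42.0 (R 4.3.3) on each pair of libraries. Intervals are exact (Poisson for levels, Clopper-Pearson for ratios, at 95%), and those of differences of log2 ratios and of ratios to Cdh5 are normal intervals on log counts. Ratios were described by the 3-fold rule of the study's methods and by a 2-fold rule with at least 20 normalized counts. Medians use a pseudocount of 1, and folds a floor of 3 reads. Genes named beside the members were the 2 largest rises and 2 falls of a list in a pair with at least 100 normalized counts, plus the ligands, receptors and neighbours of members listed with the design, and of these a selection is printed. Adgre1 and Ptprc, named as the genes of gated proteins, and the genes at 0 reads were chosen after their values were seen. Mrc1 and Mmrn1 were also named outside this rule. Exon lengths, positions (GENCODE M21, GRCm38, the same assembly as mm10) and sequences (RefSeq) gave the annotation. Alternatives were other scalings (edgeR 4.0.16 TMM, totals, all 6 libraries), minimums, pseudocounts and an assumed biological variation. Some genes with a pattern like that of the members are not reported here. Overexpression was also tested over both lines with edgeR (quasi-likelihood, line as a block, genes with at least 10 reads), a test the planned design did not hold. The steps were tested on simulated data. Python 3.11.15, numpy 2.4.6, scipy 1.17.1, pandas 2.3.3 and matplotlib 3.10.9 were used.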

Additional observations from a re-analysis of the deposited data

Results flagged for a closer look

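Ecscr had a log2 ratio of -0.45 in OE-BECs and of 0.0701 in OE-LECs, with counting intervals on opposite sides of 0 at the scaling used. Its reads were 2961 and 1664 in the BEC line and 3428 and 4223 in the LECs. The difference between the lines was not tested against replicate cultures, because each condition has 1 library, and in CPM the 2 LEC libraries did not differ beyond counting error.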

How the results depend on the processing

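Each condition has 1 library, so no replicate could be left out. A paired analysis was possible for overexpression only, with the line as a block over the 4 cultured libraries. It was added after the data were seen and called 1 member (Clec14a) of 9 and 249 of 14184 genes, with 1613 genes and 3 members at an unadjusted p under 0.05. No paired analysis was possible because of a single pair of libraries for the cKO comparison. The other scalings shifted all log2 ratios of a pair by at most 0.0553, and no member's ratio changed sign under them. In OE-LECs, size factors from all 6 libraries, TMM factors, total counts and total counts without Rn45s each gave 1 member (Clec14a) past the 3-fold rule in place of 0. The edgeR exact test with a spread between replicates assumed at 0.4 (as coefficient of variation) called 0 members in OE-BECs in place of 1, and 0 in both other pairs, with 22, 20 and 0 genes called in all in skin, OE-BECs and OE-LECs at an adjusted p under 0.05. The median log2 ratio of the members in OE-LECs was -0.21 with a pseudocount of 0.1, -0.13 with a pseudocount of 5 and -0.21 when only members averaging 20 or more normalized counts entered, which drops Esm1. The summed level of the members relative to skin Cont BECs depends on scaling. For OE-BECs it was 0.903 in CPM, but 1.01 without Rn45s in the totals and 1.03 with size factors from all 6 libraries. For cultured Cont BECs it was 1.33 in CPM, 1.41 without Rn45s and 1.46 with the size factors. With the size factors it was 0.637 for the library labelled cKO and 0.987 for OE-LECs. Of the 112 log2 ratios of single members recomputed under other scalings, 97 stayed within their counting interval and 15 left it without a change of sign. The 15 recomputed counts by the 2-fold rule stayed within 1.5 times the value reported.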

Other observations

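The other marker lists give the surroundings of the members in each library. Of 8 pericyte markers, 8 were lower in the library labelled cKO (summed level 858 CPM in Cont and 677 in cKO), with 2.32 CPM in cultured Cont BECs and 3.52 in Cont LECs. Of 8 fibroblast markers 7 were lower in the library labelled cKO (2589 and 1920 CPM), with at most 20.5 CPM in a cultured library. Of 12 keratinocyte markers 8 were higher there (278 and 427 CPM). Skeletal muscle markers summed to 127 and 107 CPM in the skin pair.

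Platelet and megakaryocyte markers, of interest because platelets carry PECAM1, summed to 198 and 320 CPM in the same pair. Pf4 alone made up 150 and 281 CPM of these sums (1331 and 3118 reads, log2 ratio 0.85), whereas 4 of the 7 detected markers were lower. In cultured Cont BECs and Cont LECs the same list summed to 959 and 597 CPM, of which Itgb3, an integrin that endothelial cells also express, made up 934 and 569 CPM, and Treml1 had 0 reads in each cultured library. Lyve1 was 1.81-fold higher by normalized counts in OE-BECs (10680 and 14786 reads), short of the 2-fold rule, and had a log2 ratio of -0.01 in OE-LECs.

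Across the 6 libraries some members ran together and others ran opposite. Ecscr had an r of 0.93 with Cdh5 and 0.91 with Egfl7, and Clec14a 0.93 with Cd93, whereas Plvap had -0.93 with Egfl7. The source of the cells (skin, yolk sac line, dermal LECs) is shared by the libraries of a pair, and these values are descriptions over 6 libraries.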
